A study of Rattus norvegicus with 17 samples.

Results

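The genes described here encode the actin thin filament of the heart muscle sarcomere: the actins Acta1, Acta2 and Actc1, the troponins Tnnc1, Tnni1, Tnni3 and Tnnt2, the tropomyosins Tpm1 and Tpm2, and the capping protein Tmod1. They were chosen by name from the annotation of the arrays' probe sets, with the brightest probe set standing for a gene. All 10 were found, each with 1 probe set, among 14506 genes and 29214 probe sets. The cells were ventricular myocytes of newborn Sprague-Dawley rats, in culture and described as 5 days old. They received uremic plasma (the plasma of people with kidney failure) at 10%, drawn before nocturnal hemodialysis (NHD, long dialysis overnight) on 6 arrays or after it on 6, control plasma on 3, or phenylephrine on 2, a drug that stimulates alpha-adrenergic receptors and enlarges myocytes in culture. For control plasma no share is stated, nor a medium for the phenylephrine cultures, and although the titles number the samples as biological replicates, no label tells if these were separate cultures or plasma donors, so that p-values measure only the spread between these samples, which may in part be technical. The titles of a pair of before NHD samples carry more than 1 number each, and the last one was taken, so that before NHD replicates 2 and 3 rest on that reading. Levels are log2 RMA values, an array scale on which 1 unit is a doubling, running from 1.28 to 14.29 over all probe sets.

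A sarcomere contracts when myosin of the thick filament pulls on actin of the thin filament. Tropomyosin lies along the actin and blocks myosin until calcium binds troponin C, and troponin I and troponin T pass that signal on. The heart begins life with the slow skeletal troponin I (Tnni1) and replaces it around birth by the cardiac form (Tnni3). Skeletal actin (Acta1) and smooth muscle actin (Acta2) are made beside cardiac actin (Actc1) in the immature heart, and skeletal actin is a classical marker of the return to a fetal program in stressed myocytes.

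Against control plasma, 4 genes changed with plasma from after NHD, 3 with phenylephrine and 1 with plasma from before NHD. With after NHD plasma Tmod1, Tnnc1 and Tnni3 rose and Acta1 fell, 4 of the 10 genes, while 28.2% of all probe sets passed the same threshold (adjusted p under 0.05, limma, over 29214 probe sets; 12.9% higher and 15.3% lower). With plasma from before NHD 1 of 10 passed, Tmod1, which was higher, against 4.93% of all probe sets (2.88% higher and 2.05% lower). With phenylephrine 3 of 10 passed (Tmod1 and Tnnc1 higher, Acta2 lower), against 18.7% (8.54% higher and 10.2% lower). In the direct comparison of after with before NHD 0 of 10 passed by limma, against 0.397%, although 4 of them had an unadjusted p under 0.05 (Acta1, Tnnc1, Tnni3 and Tmod1). Groups did not overlap in 1 of 10 genes for after against before NHD (0.644% of all probe sets), in 2 for before NHD against control (8.39%), in 5 for after NHD against control (33.4%) and in 8 for phenylephrine against control (56.9%), where only 5 arrays were set against each other. The median log2 difference of the 10 genes was 0.07 for after against before NHD, -0.06 for before NHD against control, 0.00 for after NHD against control and 0.01 for phenylephrine against control. Over all probe sets the medians were -0.01, -0.06, -0.08 and -0.07. The comparisons with control plasma share the same 3 control arrays. Before and after NHD replicates 4 lay nearer to each other than any other pair of the 17 arrays, with an SD of 0.205 over the differences of all probe sets (the next pair, control replicates 1 and 3, had 0.241). Calls of the 10 genes that changed without this pair are given with and without it.

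Promoter sequences are shown for 2 actin genes that were lower and 2 other genes that were higher on most arrays with uremic plasma, to set the sequence beside genes that moved apart. They are the 250 bases before the transcription start in RefSeq (build GRCr8), read 5′ to 3′ on the strand of the gene, with motif matches in capitals.
Acta1 (chr19:68784195-68784444, minus strand): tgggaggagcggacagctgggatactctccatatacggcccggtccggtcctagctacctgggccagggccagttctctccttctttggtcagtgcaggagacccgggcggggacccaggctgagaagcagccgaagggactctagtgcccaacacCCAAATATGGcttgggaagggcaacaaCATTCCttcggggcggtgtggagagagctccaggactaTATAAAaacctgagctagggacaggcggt
Acta2 (chr1:241172504-241172753, minus strand): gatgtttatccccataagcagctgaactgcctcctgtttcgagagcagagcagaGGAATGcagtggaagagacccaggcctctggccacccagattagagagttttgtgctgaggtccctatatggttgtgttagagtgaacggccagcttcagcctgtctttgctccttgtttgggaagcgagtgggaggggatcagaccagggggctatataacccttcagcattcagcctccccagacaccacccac
Tnni3 (chr1:78342321-78342570, plus strand): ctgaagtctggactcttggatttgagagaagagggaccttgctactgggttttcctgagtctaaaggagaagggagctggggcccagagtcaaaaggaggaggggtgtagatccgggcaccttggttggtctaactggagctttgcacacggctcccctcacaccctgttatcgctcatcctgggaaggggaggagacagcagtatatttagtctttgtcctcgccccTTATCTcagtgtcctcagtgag
Tmod1 (chr5:65111812-65112061, plus strand): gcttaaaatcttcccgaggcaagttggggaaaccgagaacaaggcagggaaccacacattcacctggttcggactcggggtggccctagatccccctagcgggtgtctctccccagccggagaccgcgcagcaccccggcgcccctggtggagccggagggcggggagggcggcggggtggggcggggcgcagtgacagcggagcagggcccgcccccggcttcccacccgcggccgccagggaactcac
The motifs searched on both strands were the CArG box, which binds serum response factor (CC and GG with 6 letters A or T between them), the M-CAT element of muscle genes, the site of cardiac zinc finger factors of the GATA family, and the TATA box. The letters CATTCC stood for the M-CAT element. The letters AGATAA stood for the site of the zinc finger factors. The letters TATAAA stood for the TATA box. No motif matches overlapped in these windows. Of 33465 promoter windows of this length, 1.5% held a CArG box, 12.1% the M-CAT letters, 10.3% the GATA letters and 12.9% the TATA box. The Acta1 window held the CArG box CCAAATATGG, with its first base 94 bases before the start, then the M-CAT letters and the TATA box. Among the 9 genes with a RefSeq promoter, Tnnc1 being the gene without an entry, it was the 1 window that matched this strict pattern. A looser pattern with at most 1 G or C among those letters, added after the sequences were seen, was in the windows of 3 of the 9, the actins Acta1, Acta2 and Actc1, and in 8.08% of the 33465 windows. The M-CAT letters, read on either strand, were in the windows of 4 of the 9 (Acta1, Acta2, Tnnt2 and Tpm1) and the GATA letters in those of Tnni3 and Tnnt2, while the Tmod1 window held no match. A match is a description of letters and not a site of binding.

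**Figure D1:**
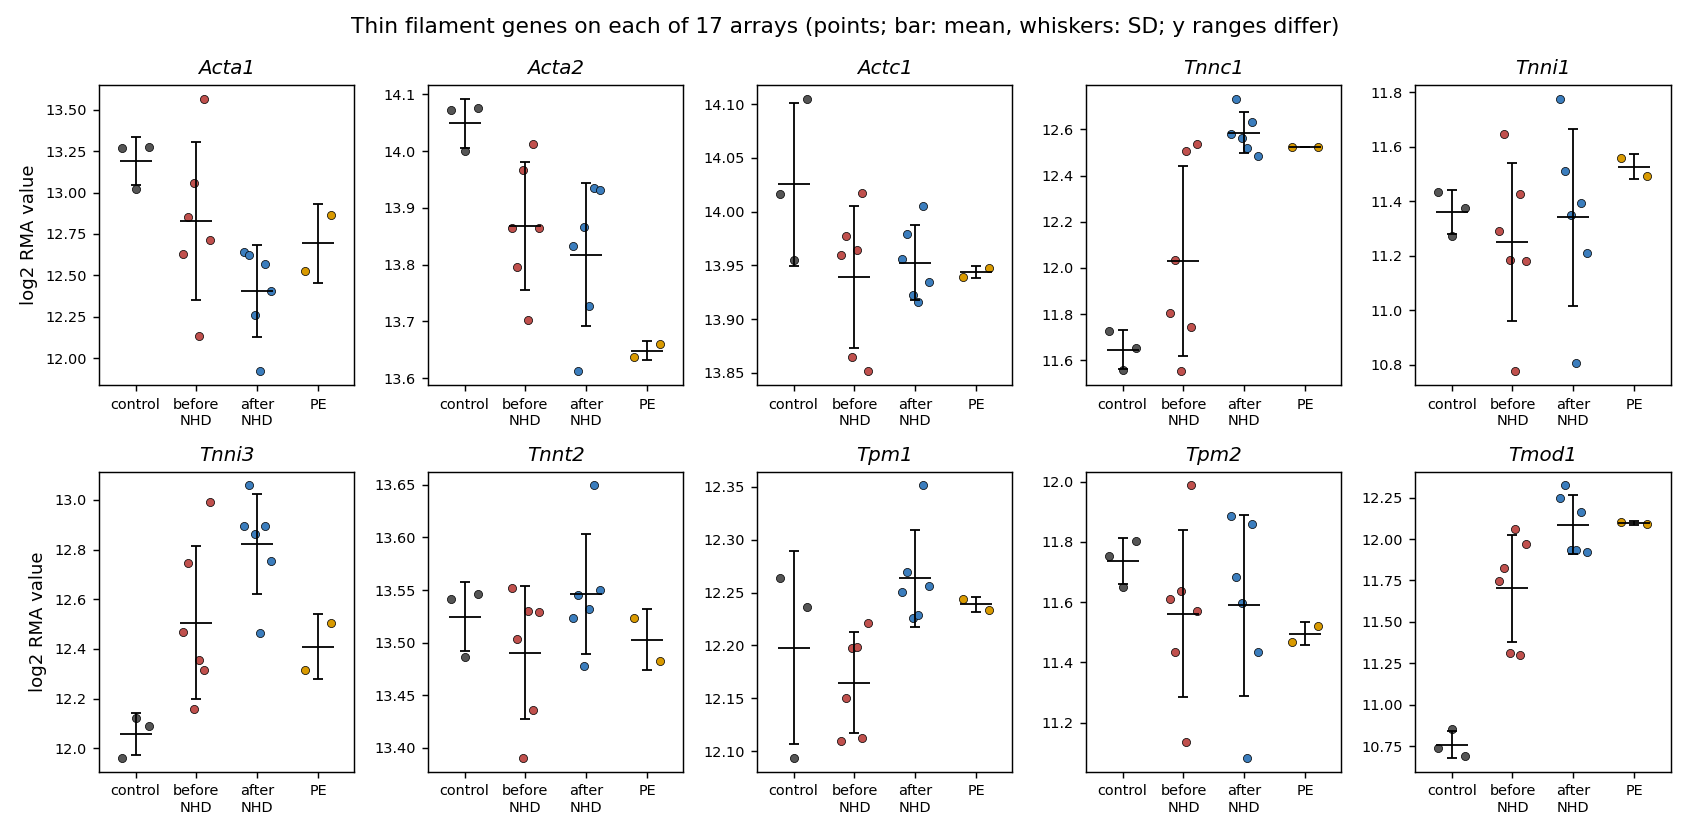
Log2 RMA values (y axis, a separate range for each gene) of the 10 thin filament genes on each of the 17 arrays, by group (x axis; PE is phenylephrine), with the group mean and SD. The 3 control arrays of Tmod1 lie at 10.69 to 10.85, below all other arrays, and the before NHD arrays of Tnnc1 spread from 11.55 to 12.54.

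Among the actins, skeletal actin had the largest measured differences. Acta1 stood at 13.27, 13.02 and 13.28 on the control arrays. It ran from 12.13 to 13.57 with before NHD plasma (median 12.78), from 11.92 to 12.64 with after NHD plasma (median 12.49), and stood at 12.52 and 12.86 with phenylephrine. All after NHD arrays lay below all control arrays, whereas before NHD arrays reached above them, with replicate 5 at 13.57. Acta1 fell by 0.79 log2 units with after NHD plasma against control (SE 0.23, limma adjusted p = 0.0187), which is 1.73-fold. This call was lost without control replicate 1 (adjusted p = 0.0794) or control replicate 3 (0.0754), and in a fit with the array SD as a covariate (log2 difference -0.64, adjusted p = 0.15). Before NHD plasma differed from control by -0.36 ± 0.23 (SE; adjusted p = 0.34) and phenylephrine by -0.50 ± 0.30 (adjusted p = 0.27), neither of which passed. The latter passed with array weights (adjusted p = 0.0178) and in a fit of the compared groups only (0.0449). Under both settings more of all probe sets passed as well. After minus before NHD was -0.42 ± 0.19 (adjusted p = 0.24), and of the 26 alternatives it passed in 1, without before NHD replicate 4 (-0.56, adjusted p = 0.0469).

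Smooth muscle actin lay near the top of the scale, where array values may be compressed, which was not tested. Acta2 was 14.07, 14.00 and 14.08 on the control arrays and 13.64 and 13.66 with phenylephrine. With before NHD plasma it ran from 13.70 to 14.01 (median 13.87) and with after NHD plasma from 13.61 to 13.94 (median 13.85). The phenylephrine arrays lay below all control and all before NHD arrays, and inside the range of the after NHD arrays. Acta2 fell by 0.40 log2 units with phenylephrine against control (SE 0.12, limma adjusted p = 0.0263), a call lost without either phenylephrine array (adjusted p = 0.14 and 0.12) and without control replicate 1 or 3 (0.0728 and 0.0710). With after NHD plasma the difference from control was -0.23 ± 0.09 (adjusted p = 0.0689) although the groups did not overlap, and it passed under 4 of 26 alternatives (the lowest adjusted p was 0.0171). Before NHD plasma differed from control by -0.18 ± 0.09 (adjusted p = 0.23).

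Cardiac actin, the main actin of the adult heart, also lay near the top of the scale and differed little between groups. Actc1 lay between 13.85 and 14.11 on all 17 arrays. Its control values were 14.02, 13.95 and 14.11, and its differences from control were -0.09 ± 0.07 before NHD, -0.07 ± 0.07 after NHD and -0.08 ± 0.09 with phenylephrine. None passed. At this height a difference may be compressed, which was not tested. The 3 actins are close relatives in sequence, so that their probes may read each other's transcripts. How much they do so was not tested.

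Troponin C, the calcium sensor of the thin filament in heart and slow muscle, spread widely among the cultures with before NHD plasma. Tnnc1 was 11.73, 11.56 and 11.66 on the control arrays. With before NHD plasma the 6 arrays gave 11.80, 12.04, 11.55, 12.51, 11.74 and 12.54 in the order of their replicate numbers. Replicates 4 and 6 therefore lay at the level of the after NHD arrays, which ran from 12.48 to 12.73, replicates 3 and 5 lay at the edges of the control range, and replicates 1 and 2 lay between. Phenylephrine gave 12.52 on both arrays.

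Tnnc1 rose by 0.94 ± 0.18 log2 units with after NHD plasma against control (1.92-fold; limma adjusted p = 0.00142), with no overlap of the groups, and passed under all 26 alternatives (highest adjusted p 0.0261). With phenylephrine it rose by 0.88 ± 0.23 (adjusted p = 0.0146), which was lost without either phenylephrine array (0.0951 and 0.0933). Before NHD plasma differed from control by 0.38 ± 0.18 (adjusted p = 0.19). After minus before NHD was 0.56 ± 0.14 (adjusted p = 0.0796). That difference passed without before NHD replicate 4 (0.65, adjusted p = 0.00901), without before NHD replicate 6 (0.66, adjusted p = 0.0105), without the before and after samples numbered 4 (0.66, adjusted p = 0.0140) and, with all arrays kept, with array weights (0.60, adjusted p = 0.00377).

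Cardiac troponin I, the inhibitory subunit of the mature heart, was higher with uremic plasma as well. Tnni3 was 11.96, 12.12 and 12.09 on the control arrays and 12.32 and 12.50 with phenylephrine. It ran from 12.16 to 12.99 with before NHD plasma (median 12.41) and from 12.46 to 13.06 with after NHD plasma (median 12.88). Every array with uremic plasma or phenylephrine lay above the 3 control arrays. Tnni3 rose by 0.77 ± 0.16 log2 units with after NHD plasma against control (1.70-fold; limma adjusted p = 0.00262), and passed under all 26 alternatives (highest adjusted p 0.0407). The differences from control of 0.45 ± 0.16 before NHD (adjusted p = 0.10) and of 0.35 ± 0.21 with phenylephrine (adjusted p = 0.25) did not pass, although both did with array weights (adjusted p = 0.0110 and 0.0377). After minus before NHD was 0.32 ± 0.13 (adjusted p = 0.20), and passed without before NHD replicate 6 (0.41, adjusted p = 0.0355). Phenylephrine minus after NHD was -0.41 ± 0.18 (adjusted p = 0.39, and 0.0213 with array weights).

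Slow skeletal troponin I, the form of the embryonic heart, did not pass in any comparison. Tnni1 was 11.43, 11.27 and 11.37 on the control arrays, 11.56 and 11.49 with phenylephrine, from 10.78 to 11.65 before NHD (median 11.24) and from 10.80 to 11.78 after NHD (median 11.37). The groups overlapped except that both phenylephrine arrays lay above the controls. Its differences from control were -0.11 ± 0.18 before NHD, -0.02 ± 0.18 after NHD and 0.17 ± 0.24 with phenylephrine, so that a change of the size seen for Tnni3 in the after NHD comparison lay several standard errors away. The sign of the after NHD difference turned under some alternatives.

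The difference of the troponin I forms was then taken on each array, as log2 Tnni1 minus log2 Tnni3. Since the probe sets differ in brightness for reasons of their own, its height has no meaning, and its shift between groups is read. It was -0.53, -0.85 and -0.72 on the control arrays, and -0.76 and -1.01 with phenylephrine. With before NHD plasma it ran from -1.81 to -0.89 (median -1.14), and with after NHD plasma from -1.66 to -1.12 (median -1.53). No array with uremic plasma reached the range of the controls, the nearest being before NHD replicate 5 at -0.89 and before NHD replicate 3 at -0.98. The shift against control was -0.78 ± 0.12 log2 units after NHD (SE, n = 6 and 3; exact two-sided permutation p = 0.0119, the smallest the design allows) and -0.56 ± 0.17 before NHD (exact permutation p = 0.0476). Adjusted over the 6 comparisons made, these became 0.0714 and 0.0952, so that neither passed.

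After minus before NHD the shift was -0.23 ± 0.17 (n = 6 and 6; exact permutation p = 0.20, adjusted p = 0.26). Phenylephrine arrays lay above all after NHD arrays, by 0.60 ± 0.15 (n = 2 and 6; exact permutation p = 0.0357, the smallest possible, adjusted p = 0.0952), and overlapped the controls (-0.19 ± 0.16, n = 2 and 3, exact permutation p = 0.40, where 0.10 is the smallest possible) and the before NHD arrays (0.37 ± 0.19, n = 2 and 6, exact permutation p = 0.21). The phenylephrine arrays thus showed a Tnnc1 level within the range of the after NHD arrays beside a troponin I difference nearer to that of the controls. That contrast between the 2 troponins was not tested.

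**Figure D2:**
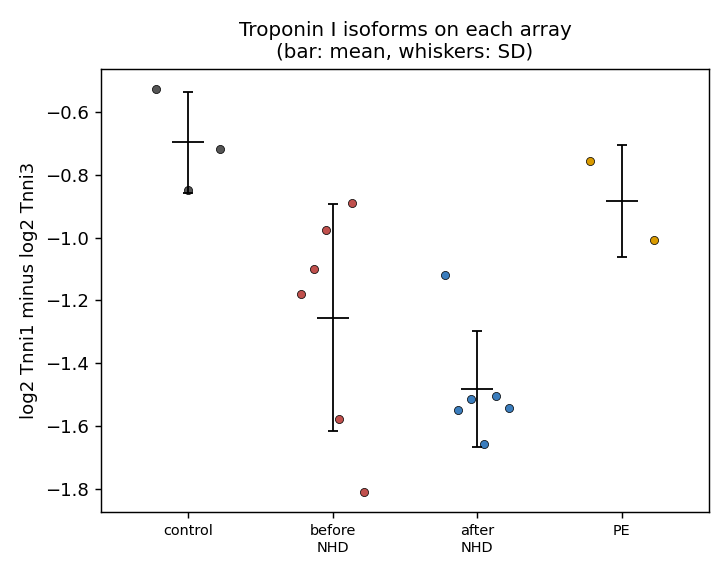
Log2 Tnni1 minus log2 Tnni3 on each array (y axis) by group (x axis; PE is phenylephrine), with mean and SD. The 3 control arrays lie between -0.85 and -0.53, above all 12 arrays with uremic plasma, and the phenylephrine arrays lie at -0.76 and -1.01.

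Troponin T, which ties the troponin complex to tropomyosin, was among the steadiest of these genes. Tnnt2 lay between 13.39 and 13.65 on all 17 arrays, with controls at 13.54, 13.49 and 13.55. All groups overlapped, and the differences from control were -0.03 ± 0.07 before NHD, 0.02 ± 0.07 after NHD and -0.02 ± 0.09 with phenylephrine. Its gene lies close to Tnni1 on chromosome 13 of GRCr8, where Tnni1 ends at position 49793385 and Tnnt2 starts at 49819123.

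Alpha-tropomyosin, the main tropomyosin of the rodent heart, moved as little. Tpm1 was 12.26, 12.09 and 12.24 on the control arrays and 12.24 and 12.23 with phenylephrine. The before NHD arrays at 12.11 to 12.22 (median 12.17) lay wholly below the after NHD arrays at 12.23 to 12.35 (median 12.25). The difference was 0.10 ± 0.06 log2 units (limma adjusted p = 0.38) and did not pass. Against control, Tpm1 differed by -0.03 ± 0.07 before NHD, 0.07 ± 0.07 after NHD and 0.04 ± 0.09 with phenylephrine.

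Beta-tropomyosin, a form of skeletal and fetal heart muscle, varied more from array to array than between groups. Tpm2 was 11.75, 11.65 and 11.80 on the control arrays, 11.47 and 11.52 with phenylephrine, from 11.14 to 11.99 before NHD (median 11.59) and from 11.08 to 11.89 after NHD (median 11.64). The uremic groups covered the whole range of the controls, and both phenylephrine arrays lay below it. Its differences from control were -0.17 ± 0.17 before NHD, -0.15 ± 0.17 after NHD and -0.24 ± 0.22 with phenylephrine, and none passed.

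Tropomodulin 1, the cap on the pointed end of the thin filament, showed the largest change of the 10 genes in each comparison with control. Tmod1 was 10.74, 10.85 and 10.69 on the control arrays and 12.10 and 12.09 with phenylephrine. It ran from 11.30 to 12.06 with before NHD plasma (median 11.79) and from 11.92 to 12.32 with after NHD plasma (median 12.05). No other array came down to the control arrays, and before NHD replicates 3 and 5 came nearest, at 11.31 and 11.30. Tmod1 rose by 1.33 ± 0.16 log2 units after NHD (2.51-fold; limma adjusted p = 0.000416) and by 1.34 ± 0.21 with phenylephrine (2.52-fold; adjusted p = 0.000754), and both passed under all 26 alternatives (highest adjusted p 0.00705 and 0.0160).

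Before NHD plasma raised Tmod1 by 0.94 ± 0.16 log2 units over control (1.92-fold; limma adjusted p = 0.0164). The size stayed between 0.86 and 1.02 under the 26 alternatives. The call was lost without control replicate 1 (adjusted p = 0.14) or control replicate 3 (0.13). It was also lost in a fit of these 2 groups alone (0.20) and with the array SD as a covariate (0.0685). In the fit of these 2 groups alone 0 of all probe sets passed, and with the covariate 2 did. The loss in these fits was therefore not particular to Tmod1. After minus before NHD was 0.38 ± 0.13 (adjusted p = 0.13), which passed without before NHD replicate 4 (0.46, adjusted p = 0.0359), without the samples numbered 4 (0.49, adjusted p = 0.0362) and with array weights (0.39, adjusted p = 0.0408). Under each of these settings many more of all probe sets passed as well. Phenylephrine and after NHD plasma differed by 0.01 ± 0.18. In the order of Tmod1 levels, before NHD against control was the only step between neighbouring groups that passed, and for the other 9 genes no such step did.

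**Figure D3:**
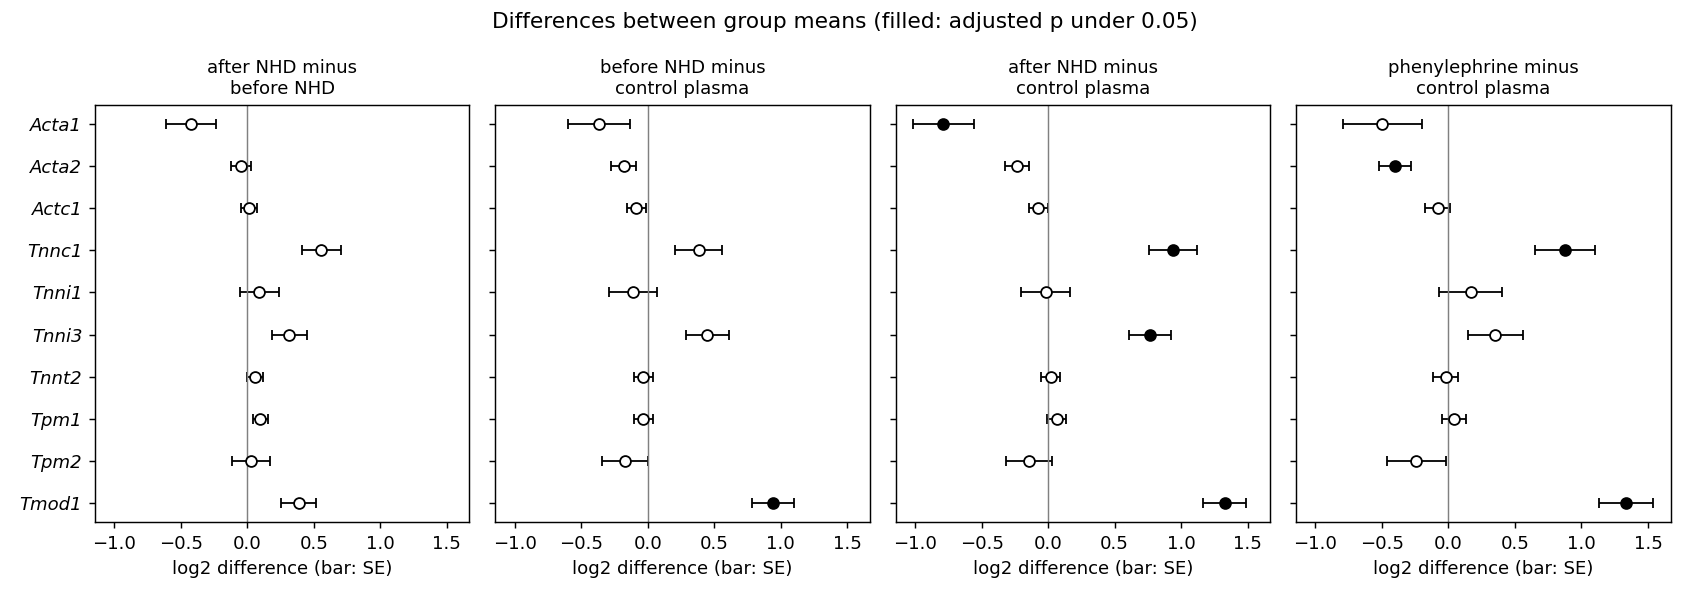
Differences between group means in log2 units (x axis, bars show the SE) for the 10 genes (y axis) in 4 comparisons, with filled points where the limma adjusted p was under 0.05. Tmod1 is filled in the 3 comparisons with control plasma, at 0.94, 1.33 and 1.34, and no point is filled for after minus before NHD.

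Single arrays were the extreme of their group in several genes. Before NHD replicate 4 was the lowest of its 6 arrays in 4 genes (Acta1, Acta2, Tnni1 and Tpm2) and the highest in Tmod1, and after NHD replicate 4 the lowest of its 6 in 5 (Acta1, Actc1, Tnni1, Tnni3 and Tpm2). Against the control mean these 2 arrays gave -1.06 and -1.27 for Acta1, -0.58 and -0.56 for Tnni1, and -0.60 and -0.65 for Tpm2. As often extreme, before NHD replicate 5 was the highest of its group in Acta1, Acta2, Actc1 and Tpm2 and the lowest in Tmod1.

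**Figure D4:**
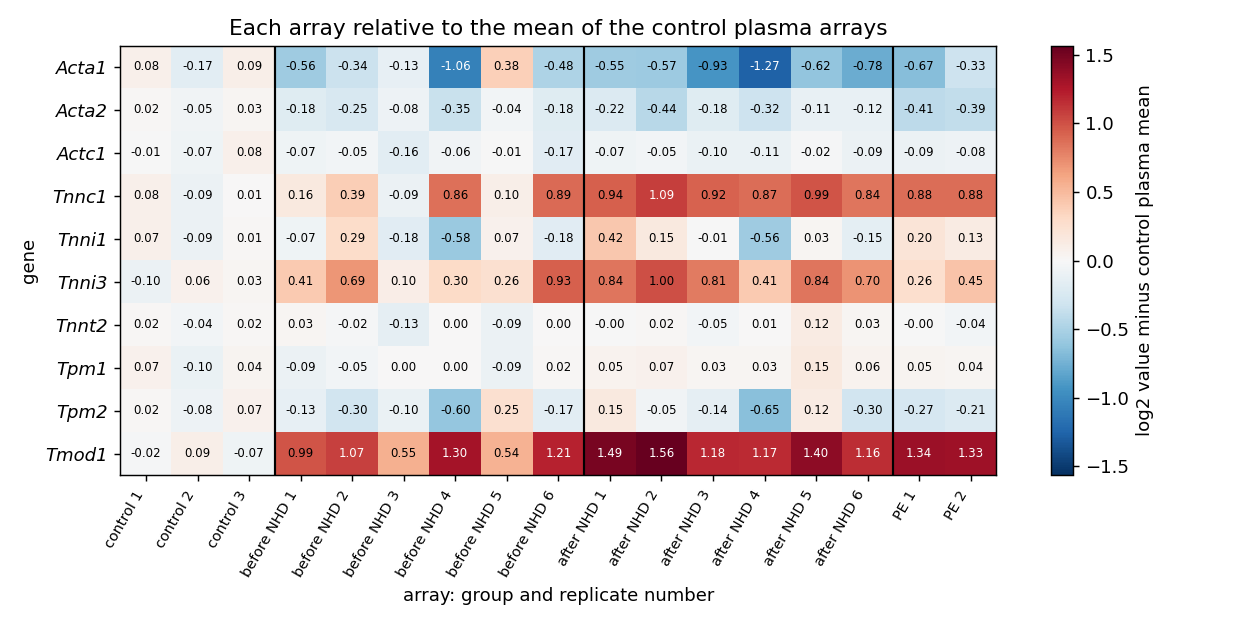
Each array's log2 value minus the mean of the 3 control arrays (colour and printed number) for the 10 genes (y axis) on the 17 arrays (x axis; PE is phenylephrine). Tmod1 is above the control mean on all 14 other arrays, from 0.54 to 1.56, and the arrays numbered 4 show the lowest Acta1 values, -1.06 and -1.27.

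The spread of the values within an array was set beside some of these levels, and whether that spread is technical was not tested. The SD of the log2 values within an array was 2.24 and 2.25 on control replicates 1 and 3, 2.24 and 2.27 on before NHD replicates 1 and 5, and from 2.29 to 2.37 on the others, control replicate 2 included at 2.32. Before NHD replicates 1 and 5 also had low Tnnc1 (11.80 and 11.74). So had before NHD replicate 3 (11.55) with an SD of 2.33 and control replicate 2 (11.56) with an SD of 2.32. With that SD as a term, Tmod1, Tnnc1 and Tnni3 still passed after NHD against control (1.21, 0.76 and 0.62 log2 units) and Acta1 did not. With phenylephrine all 3 calls held (Tmod1 1.26, Tnnc1 0.76 and Acta2 -0.38 log2 units), and before NHD the call of Tmod1 was lost, as given above. For after against before NHD 0 of the 10 passed by limma with this covariate, as without it.

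Markers of the labelled cell type were present. All 12 measured markers of cardiac myocytes lay above the array's median probe set on all 17 arrays, against 7 of 13 fibroblast markers, 8 of 10 smooth muscle markers, 0 of 7 endothelial markers, 0 of 8 leukocyte markers and 2 of 8 skeletal muscle markers. The other skeletal muscle markers included 4 that lay below it on all arrays (Myod1, Myog, Myf5 and Myh4). The mean of the myocyte markers was 12.03 to 12.04 on the control arrays, 12.25 to 12.82 before NHD, 12.43 to 12.93 after NHD and 12.56 to 12.59 with phenylephrine. The mean of the fibroblast markers was 8.68 to 8.78, 7.71 to 10.08, 7.97 to 9.98 and 10.10 to 10.32 in the same order. With phenylephrine against control all 13 fibroblast markers were higher (median 1.35 log2 units), of which 1, S100a4, passed. For after against before NHD 12 of 13 were higher (median 0.51) and S100a4 passed (1.03 ± 0.20, limma adjusted p = 0.0400). For after NHD against control 8 of 13 were higher (median 0.37) and S100a4 passed (1.35 ± 0.24), and for before NHD against control 5 of 13 were higher (median -0.15). In RNA of whole cultures, more cells of a type and more RNA per cell cannot be told apart, and the part of cell makeup in the thin filament differences was not tested. Of 10 smooth muscle markers 6 were higher with after NHD plasma than with control plasma (median 0.18 log2 units). The 1 that passed there, Cnn1 (calponin), was lower (-1.16 ± 0.29). With phenylephrine against control 6 of the 10 were higher (median 0.15) and 0 passed by limma (4 at an unadjusted p under 0.05), where Acta2 fell. Of 7 endothelial markers 1 passed before and after NHD against control (Kdr, higher) and 2 with phenylephrine (Kdr and Cdh5, higher). Cdh5 lay below the array's median probe set on all arrays (on average 6.25 with control plasma and 6.76 with phenylephrine). The list as a whole had 2 of 7 above control before NHD (median -0.03), 1 of 7 after NHD (median -0.07) and 6 of 7 with phenylephrine (median 0.21). Of 8 leukocyte markers 0 passed against control by limma (at an unadjusted p under 0.05, 1 before NHD, 1 after NHD and 1 with phenylephrine). Of 8 skeletal muscle markers the myosin genes Myh1, Myh2 and Myh3 rose before and after NHD, close relatives of the cardiac myosins whose probes may share transcripts. Myh1 was low, on average 5.40 with control plasma and 6.81 after NHD. Beside the counts of these lists, 0.397% of all probe sets passed for after against before NHD. As higher than control, 2.88% passed before NHD, 12.9% after NHD and 8.54% with phenylephrine, and 15.3% passed as lower after NHD.

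Other contractile genes of the myocyte list moved in the direction of Tmod1, Tnnc1 and Tnni3. After NHD 6 of 12 myocyte markers rose against control and 0 fell (median 0.47), among them Mybpc3, myosin-binding protein C (1.17 ± 0.19), and Myl7, the atrial light chain (1.64 ± 0.32). Before NHD 4 of 12 rose (median 0.32), and with phenylephrine 4 of 12 (median 0.34). Of all probe sets 12.9% passed as higher after NHD against control, 2.88% before NHD and 8.54% with phenylephrine. The remaining actin, troponin and tropomyosin genes had 2 of 9 higher after NHD (median 0.23), Tpm3 by 0.69 ± 0.19 and the slow skeletal troponin T gene Tnnt1 by 0.68 ± 0.25.

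A list of genes for thin filament length, capping and myofibril assembly had 7 of 17 higher and 0 lower after NHD against control (median 0.44). There 12.9% of all probe sets passed as higher. Unc45b, the chaperone that folds myosin of the thick filament, rose by 1.76 ± 0.26. Nrap, a scaffold of growing myofibrils, rose by 0.84 ± 0.15, Ldb3 of the Z-disc by 0.69 ± 0.15 and the actin-severing Cfl1 by 0.63 ± 0.14. Before NHD only Unc45b passed against control (1.12 ± 0.26), 1 of 17, where 2.88% of all probe sets passed as higher. With phenylephrine against control 4 of 17 rose and 1 fell, where 8.54% of all probe sets passed as higher and 10.2% as lower. Nrap rose by 1.12 ± 0.19, Unc45b by 1.69 ± 0.34 and a second tropomodulin, Tmod2, by 1.19 ± 0.34. Tmod2 was low, on average 5.56 with control plasma and 6.75 with phenylephrine, where the array medians were 6.95 or more. The capping protein subunit Capza2 fell by 0.43 log2 units (SE 0.12). In the direct comparison of after with before NHD 0 of these 17 passed by limma (median 0.18; 4 had an unadjusted p under 0.05).

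Serum response factor drives actin genes through CArG boxes, together with its coactivators of the MRTF and myocardin family. The letters of such a box are printed above for Acta1, and whether they were bound in these cells was not tested. Of 11 measured genes of this pathway 2 rose and 1 fell after NHD against control (median 0.10), a share near the 28.2% of all probe sets that passed there. Vcl, vinculin of cell adhesions, rose by 1.04 ± 0.14 and Fhl2 by 0.82 ± 0.19, whereas Ccn1, a secreted matrix protein, fell by 1.33 log2 units (SE 0.29). Vcl also rose before NHD (0.73 ± 0.14) and with phenylephrine (1.22 ± 0.18). For after against before NHD 0 of the 11 passed by limma (3 at an unadjusted p under 0.05).

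Against uremic plasma, phenylephrine left 0 of the 10 thin filament genes past the threshold by limma, where 4.34% of all probe sets passed against before NHD and 0.979% against after NHD. Groups did not overlap in 3 of 10 genes (16.5% of all probe sets) and in 0 (24.0%). At an unadjusted p under 0.05 there were 2 and 1 of 10. The differences ran from -0.22 to 0.49 log2 units against before NHD and from -0.41 to 0.29 against after NHD. Both phenylephrine arrays lay above all before NHD arrays in Tmod1 (0.39 ± 0.18, adjusted p = 0.26) and below them in Acta2 (-0.22 ± 0.11, adjusted p = 0.27). All 13 fibroblast markers were higher with phenylephrine than before NHD (median 1.30) and after NHD (median 1.13), and their part in these differences was not tested. With 2 arrays the precision of these values is low.

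The genes whose profile over the 17 arrays came closest to a member were sought by the root mean square difference of values centred on each gene's mean. For Acta1, which itself varied by 0.417 log2 units about its mean, these were Pex7 (0.150), Gmcl1 (0.162) and Mfsd9 (0.167), with Pex7 at 8.13 on the control arrays and 7.16 after NHD on average. Nearest to Tnnc1, which varied by 0.426, were Med12l (0.107), Habp4 (0.110) and Mmp17 (0.125), the last at 6.71 on the control arrays and 7.67 after NHD. Acta2 (0.144) had Acbd5 (0.0735), profilin 1 (Pfn1, 0.0832) and Sec11a (0.0882) nearest to it, and Tnni1 (0.253) had Creld1 (0.138), Arpc1a (0.142) and Tecr (0.144). Of these, profilin and the Arp2/3 subunit Arpc1a are known to act on actin. The arrays share groups and normalization, so that this likeness is a description.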

How the data were processed

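Biotin-labelled RNA of the cultures was hybridised to 17 Affymetrix arrays, 1 for each sample. Values were deposited on a log2 scale (judged from their range), and the submitters' processing notes name RMA. It subtracts background, quantile-normalizes arrays and summarises probe sets, so that shared changes are removed. Differences near the ceiling of the scale may be compressed, which was not measured. The RMA version and any genome build were not given in the sources used here. Columns of no sample numbered 0.

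The platform annotation gave gene names (15310 with 1 symbol, 323 with several, 13581 without one here). Symbols were updated by Entrez number through an NCBI RefSeq table, which held 15279 of them. Promoters came from RefSeq (GRCr8), which matched 9 of the 10 genes.

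A single limma model (limma 3.58.1 under R 4.3.3, eBayes) covered all probe sets and the 4 groups on 17 arrays (13 residual and 3.32 prior degrees of freedom), with Benjamini-Hochberg adjustment over 29214. The procedure was tested on simulated data. The SE pools groups of unequal spread. The troponin I difference was compared by an exact permutation test of the absolute difference of means. The named genes were the 10 members, up to 4 passing genes of each list by smallest p, and the 3 nearest profiles to Acta1, Acta2, Tnnc1 and Tnni1. The members and lists were chosen with earlier results of these data known. The 26 alternatives were 9 changes of processing or model and each array left out in turn.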

Additional observations from a re-analysis of the deposited data

Results flagged for a closer look

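Values that lay far from the rest of their group were looked for with Dixon's test in the groups of 6 arrays, for the 10 genes and the troponin I difference. Of 22 groups 2 had one, where chance sets apart about 1 in 20 groups. Tpm1 was 12.35 on after NHD replicate 5, with the other five at 12.23 to 12.27. Tnni1 minus Tnni3 was -1.12 on after NHD replicate 1, with the other five at -1.66 to -1.50.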

How the results depend on the processing

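With array weights 2 of the 10 genes passed for after against before NHD and 2 for before NHD against control. With phenylephrine 5 passed against control and 1 each against before and after NHD. In each of these comparisons many more of all probe sets passed with array weights than without them. The calls gained with array weights, here and above, were therefore not particular to these genes. For before NHD against control 0 of the 10 passed in a fit of the compared groups only, where 0 of all probe sets passed. With the array SD as a covariate 0 of the 10 passed as well, where 2 of all probe sets passed. For after against before NHD 2 of the 10 passed without the samples numbered 4. There many more of all probe sets passed than with all arrays kept. With 1 array left out at a time, counts ran from 0 (most arrays) to 3 (without before NHD replicate 4, 2 without replicate 6) for after against before NHD, from 0 (without control replicate 1 or 3) to 1 for before NHD against control, and from 1 (without either phenylephrine array) to 3 for phenylephrine against control. For after against before NHD, the number of all probe sets that passed also moved with the array left out. It was 0 without before NHD replicate 1, 2 or 3. Without before NHD replicate 4 many more passed than with all arrays kept. The calls gained without replicate 4, here and above, were therefore not particular to these genes. The after NHD count against control stayed at 3 to 5 under all 26 alternatives. There many fewer of all probe sets passed with the array SD as a covariate, and many more with array weights. Where 1 phenylephrine array remained, its spread was assumed to be that of the other groups.

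Signs turned only in differences that did not pass. Under a second quantile normalization Actc1 after minus before NHD became -0.014, Tnnt2 before NHD against control 0.012 and Tnnt2 with phenylephrine against control 0.011. Tnni1 after NHD against control became 0.026 with array weights, 0.14 with the replicate block, 0.093 with the SD covariate and 0.088 without the samples numbered 4, and Tnni1 before NHD against control 0.054 with the replicate block. With 1 array left out, ranges that crossed 0 were -0.0043 to 0.029 for Actc1 (after NHD against before NHD), -0.0039 to 0.20 for Tnni1 (after NHD against before NHD), -0.057 to 0.13 for Tpm2 (after NHD against before NHD), -0.11 to 0.088 for Tnni1 (after NHD against control plasma), -0.085 to 0.00017 for Tpm1 (before NHD against control plasma) and -0.011 to 0.074 for Tpm1 (phenylephrine against control plasma). The causes were not tested.

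The replicate number as a block left 0, 1, 5, 3, 0 and 0 genes passing in the 6 comparisons (after against before NHD, before NHD, after NHD and phenylephrine against control, phenylephrine against before and after NHD), where Acta2 was gained after NHD against control (adjusted p = 0.0406). Deviations of same-numbered before and after arrays correlated at -0.0254 to 0.599 across probe sets, over 0.1 in 4 of 6 pairs, and 3 of 6 before NHD arrays matched best with their own number, so that the numbers do not establish pairs. As 6 pairs, the troponin I shift after minus before NHD was -0.23 ± 0.15, lower after NHD in 4 of 6 (exact sign-flip p = 0.19). The troponin I shift kept its sign in all 6 comparisons under a second quantile normalization, without the samples numbered 4 and with any 1 array left out, while its p, already the smallest the design allows in 2 of them, says nothing of stability. No gene had a further probe set, so that alternative was not run. The number of arrays limits precision, most of all with phenylephrine.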
